A study of Mus musculus with 12 samples.

Results

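Ribosomal protein gene copies, most of them processed pseudogenes, took a far larger share of ribosomal protein reads in the substantia nigra pars compacta (SNpc) of OF1 than of C57 mice. This was not particular to them: pseudogenes of all kinds together also took a larger share of reads in OF1 mice. The copies described here were chosen by name and by measured values: genes in the GENCODE mouse annotation whose symbol starts with Rpl or Rps and contains -ps, of any biotype, with 10 or more estimated reads summed over the 12 libraries. Of 322 such copies in the annotation, 310 had a transcript in the deposited tables and 141 were selected on that total. A further 104 had reads but fewer than 10, and 65 had 0 reads in every library. The nearest on either side of the minimum were Rpl31-ps21 (10.01 reads) and Rpl19-ps3 (10.02 reads), just inside, and Rps15-ps2 (9.60 reads) and Rpl23a-ps2 (9.63 reads), just outside.

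The study compared mice in which 1 allele of En1, a homeobox gene needed by midbrain dopaminergic neurons, is disrupted by a LacZ insertion, on 2 genetic backgrounds. The groups were SwissOF1 (OF1) wild-type mice (OF1 WT), OF1 mice hemizygous for En1 (OF1-En1+/-), C57Bl/6j wild-type mice (C57 WT) and C57 mice hemizygous for En1 (C57-En1+/-), with 3 mice in each. All were 1 week old and labelled male, untreated, and the tissue was captured by laser from SNpc. OF1 is an outbred stock, and the En1 allele of the C57-En1+/- mice was brought in from OF1 by crossing to C57 over many generations. Each library comes from 1 mouse.

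Ribosomal proteins build the small (Rps) and large (Rpl) subunits of the ribosome, and their short, abundant mRNAs are a frequent source of processed pseudogenes. Such a copy arises when an mRNA is reverse transcribed and inserted elsewhere in the genome, so it has no introns and can be nearly identical to its parent gene. Which copies a mouse carries, and which bases they hold, can differ between strains. A short read from a stretch that copy and parent share fits both, and the quantification program divides such reads between them.

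The OF1 libraries held 13538864 to 30927714 estimated reads and the C57 libraries 20030280 to 168741283. En1 did not follow the genotype labels: it was at 0.0345 to 0.473 RPM (reads per 1000000 reads, scaled by TMM factors) in OF1 WT, at 0, 21.5 and 0 in OF1-En1+/-, at 0.0271 to 33.3 in C57 WT and at 0 to 0.293 in C57-En1+/- mice. The sum of 5 markers of dopaminergic neurons (Th, Slc6a3, Ddc, Slc18a2 and Nr4a2) reached 11760 RPM in the OF1-En1+/- mouse SW22 and 17980 in the C57 WT mouse C572S, and was between 14.0 and 192 in the other 10 libraries. The C57-En1+/- mouse C572, labelled male, had 41.4 RPM of Xist and 0 of the Y-linked Ddx3y and Eif2s3y. It also had the highest sum of 3 oligodendrocyte markers, 4674 RPM against 190 to 2716 in the other libraries. The part of these differences in the results below was not tested beyond refitting without these libraries.

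The 141 copies had 48 parent genes. By biotype, 119 were processed pseudogenes, 18 transcribed processed pseudogenes, 3 protein-coding genes and 1 a lncRNA gene, and 140 had a single exon. In OF1 mice they took 6.55 to 7.69% of all reads of ribosomal protein genes and copies together, and in C57 mice 2.28 to 3.04%, so the ranges of the 2 strains did not overlap. Pseudogenes of all kinds took 1.04 to 1.32% of the reads matched to genes in OF1 and 0.451 to 0.890% in C57 mice. Those ranges did not overlap either. The 79 listed cytosolic ribosomal protein genes together took 8298 to 15916 reads per 1000000 in OF1 mice, while C57 mice had 8015 to 16074, so these ranges overlapped almost wholly.

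Sequences show how little separates the copies from their parents. All runs below are stretches of 60 bases within the coding sequence, from GENCODE transcripts on GRCm39, written 5′ to 3′. They are reference sequences, and whether the OF1 mice carry the same bases was not tested. Capitals mark bases at which copy and parent differ, and positions count from 1 at the first base of the start codon of the parent. The first pairs are copies that took reads almost wholly in OF1 mice, Rpl3-ps1 at chrX:13068837-13068896 (+ strand), Rpl34-ps1 at chr6:71101695-71101754 (+ strand), Rpl35a-ps2 at chr1:181069701-181069760 (- strand), Rps18-ps6 at chr13:97896714-97896773 (- strand), Rpsa-ps10 at chr3:149778937-149778996 (- strand) and Rps2-ps13 at chrX:51987506-51987565 (+ strand).
Rpl3-ps1: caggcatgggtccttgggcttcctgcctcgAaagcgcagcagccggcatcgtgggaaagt
Rpl3: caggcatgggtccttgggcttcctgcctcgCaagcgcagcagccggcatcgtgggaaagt
Rpl34-ps1: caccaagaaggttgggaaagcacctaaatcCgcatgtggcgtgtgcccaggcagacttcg
Rpl34: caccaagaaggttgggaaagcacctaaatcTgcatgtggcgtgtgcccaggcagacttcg
Rpl35a-ps2: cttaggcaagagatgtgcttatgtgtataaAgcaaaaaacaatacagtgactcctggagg
Rpl35a: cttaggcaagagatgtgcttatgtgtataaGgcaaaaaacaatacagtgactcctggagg
Rps18-ps6: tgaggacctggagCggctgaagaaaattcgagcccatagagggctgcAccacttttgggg
Rps18: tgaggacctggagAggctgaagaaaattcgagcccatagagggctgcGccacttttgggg
Rpsa-ps10: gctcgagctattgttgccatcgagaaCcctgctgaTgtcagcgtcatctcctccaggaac
Rpsa: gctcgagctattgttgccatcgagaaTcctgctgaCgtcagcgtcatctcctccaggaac
Rps2-ps13: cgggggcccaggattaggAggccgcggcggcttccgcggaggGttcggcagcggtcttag
Rps2: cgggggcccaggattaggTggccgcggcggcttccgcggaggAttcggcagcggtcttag

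For contrast, 2 copies with similar levels in both strains are shown by the start of their coding sequence, which is the same run in copy and parent: Rps23-ps1 at chr3:37768889-37768948 (+ strand) and Rpl28-ps1 at chr1:127966306-127966365 (+ strand).
Rps23-ps1: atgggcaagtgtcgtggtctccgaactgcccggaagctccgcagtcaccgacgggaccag
Rpl28-ps1: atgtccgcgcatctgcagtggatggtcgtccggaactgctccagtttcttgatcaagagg

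A copy was counted as read in a library at 0.25 RPM or more, which is 3.41 reads in the shallowest library. It was counted as read in a strain if that held in at least 3 of its 6 libraries, and as read in that strain only if it held in 0 of the 6 libraries of the other. By this rule 11 of the 141 copies were read in OF1 only, where 1.03% of the 27247 genes with 10 or more reads were. One copy, Rpl9-ps8, was read in C57 only, where 0.694% of those genes were, and 14 were read in both strains, where 62.7% were. In 4 copies reads were uneven, with at least 3 libraries of 1 strain and 1 or 2 of the other, and 111 were low in both strains. Among the 2421 other pseudogenes with 10 or more reads, 142 (5.87%) were read in OF1 only and 22 (0.909%) in C57 only, beside 7.80% and 0.709% of the copies. Since the strain values set these classes, the classes are a description and were not tested. They tell where reads were assigned with the reference transcripts, and which copies each strain carries was not tested. They also moved with the level: at 0.1 RPM, 3 copies were read in OF1 only, 2 in C57 only and 23 in both, and at 1 RPM 12, 0 and 8, with Rpsa-ps10, Rps18-ps4, Rps18-ps6 and Rps24-ps3 then read in OF1 only.

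**Figure D1:**
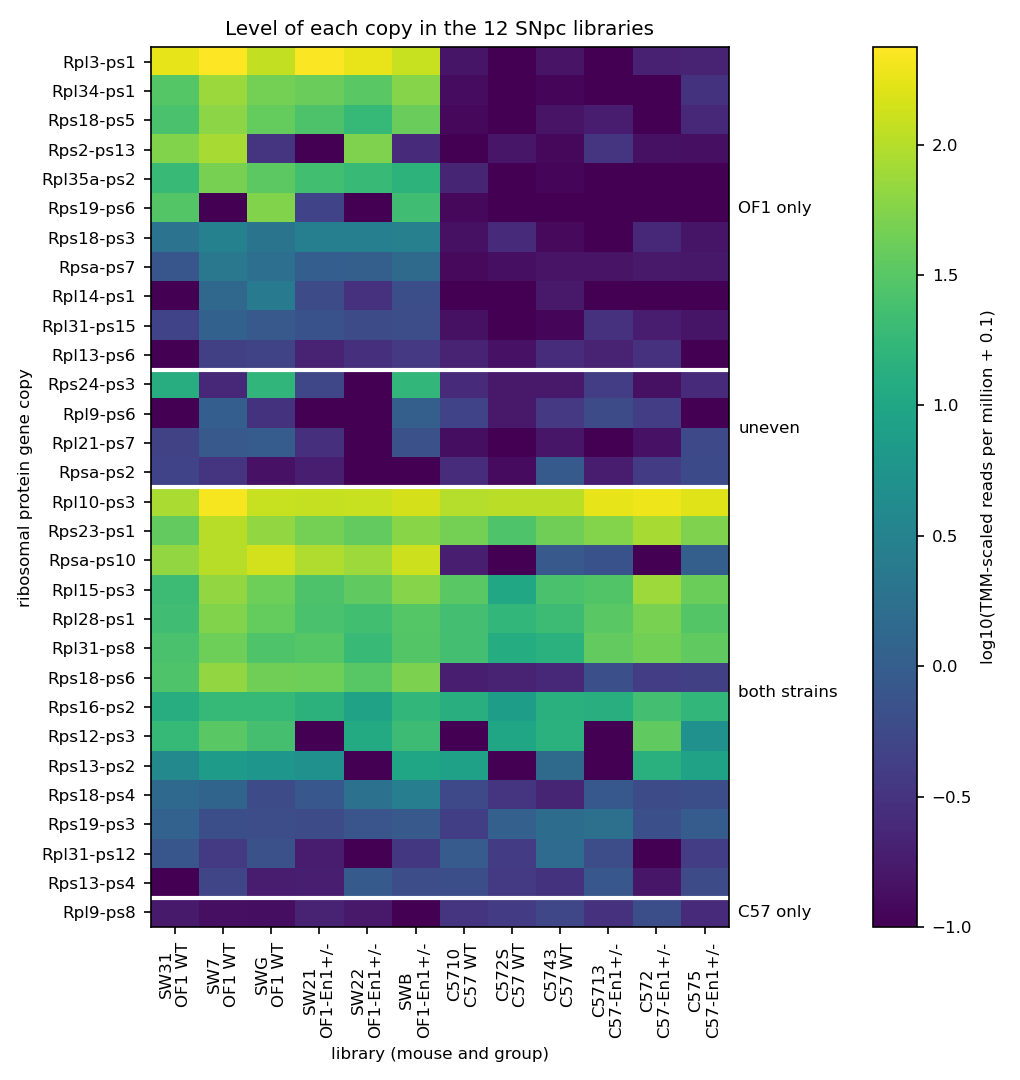
Colour gives the log10 of RPM plus 0.1 for the 30 copies outside the low class (rows, by class and mean level) in the 12 libraries (columns, by mouse and group). All 11 copies read in OF1 only are dark in the 6 C57 columns, and those with dark OF1 columns among them are Rps2-ps13, Rps19-ps6, Rpl14-ps1 and Rpl13-ps6, while Rpsa-ps10 and Rps18-ps6 show the same contrast within the class read in both strains.

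Rpl3-ps1, a copy of the large-subunit gene Rpl3 at chrX:13068810-13070019, was read in all 6 OF1 libraries. It had 175, 237 and 115 RPM in the OF1 WT mice SW31, SW7 and SWG and 224, 183 and 123 in the OF1-En1+/- mice SW21, SW22 and SWB. In C57 mice it had 0.0548, 0 and 0.0499 in C57 WT and 0, 0.106 and 0.111 in C57-En1+/-. Every OF1 library was thus above every C57 library, with a ratio of means of 3289 and a log2 fold change of 11.55 ± 0.46 (SE). Rpl3-ps1 differs from Rpl3 in 2 of 1210 bases, C57A and T786C, and both changes are synonymous.

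Rpl34-ps1, at chr6:71101594-71101947, copies another large-subunit gene and was read in all 6 OF1 libraries. Its levels were 30.4, 72.6 and 46.3 RPM in OF1 WT and 40.5, 32.8 and 56.7 in OF1-En1+/- mice, against 0 to 0.0280 in C57 WT and 0 to 0.215 in C57-En1+/- mice. The log2 fold change was 10.24 ± 0.62. Its 2 differences from Rpl34 over 354 bases, T132C and C318G, are synonymous. Per length it was the highest of all copies in OF1 mice, at 513 ± 113 TPM (a level per length, SD, n = 6), above its parent Rpl34 at 204 ± 42.6 TPM in the same mice. Of its windows of 75 bases, the read length, 0% are in this copy alone. Its level therefore depends on how the quantification divided reads. The share of such windows was also small in Rpl3-ps1 (5.11%), Rpl35a-ps2 (9.27%) and Rps18-ps6 (3.70%).

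Rpl35a-ps2, at chr1:181069553-181069885, has the single difference G156A from Rpl35a over 333 bases, and it too is synonymous. Its levels were 19.3, 48.1 and 32.9 RPM in OF1 WT and 22.5, 18.5 and 15.01 in OF1-En1+/- mice. C57 mice had 0.123, 0 and 0.0119 in the WT group and 0 in all 3 of the hemizygous group. The groups of the 2 strains did not overlap, with a log2 fold change of 11.08 ± 0.80.

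The small-subunit gene Rps18 had 3 copies with this pattern. Rps18-ps6, annotated as protein-coding at chr13:97896580-97897140, had 27.7, 67.2 and 44.5 RPM in OF1 WT and 42.5, 31.1 and 51.8 in OF1-En1+/- mice. In C57 WT mice it had 0.0896 to 0.144 and in C57-En1+/- mice 0.309 to 0.572, so it was classed as read in both strains although its log2 fold change was 7.64 ± 0.33. Rps18-ps5, at chr13:28441511-28442117, had 18.3 to 61.0 RPM in OF1 mice with a median of 32.5, and 0 to 0.134 in C57 mice. Rps18-ps3, at chr8:107989425-107989880, was named after its values were seen: its level was 1.80 to 2.90 RPM in OF1 mice, against 0 to 0.155 in C57 mice. They share the synonymous difference A337C from Rps18, which 3 of the 5 copies of Rps18 with 10 or more reads carry. The lncRNA gene Rps18-ps4 lies across Rps18-ps6 on the opposite strand. Since the libraries were made without marking strand, their reads cannot be told apart there.

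Rpsa-ps10, at chr3:149778295-149779179, copies Rpsa, which encodes a small-subunit protein also known as a laminin receptor. Its levels were 67.9, 103 and 139 RPM in OF1 WT and 95.1, 75.2 and 132 in OF1-En1+/- mice. In C57 mice they were 0.0909, 0 and 0.772 in WT and 0.607, 0 and 0.960 in hemizygous animals. The lowest OF1 library was far above the highest C57 library, and the log2 fold change was 7.94 ± 0.90. It has 6 differences from Rpsa over 885 bases, of which 5 are synonymous. The copy Rpsa-ps7, named after its values were seen, shares T210C and C219T with it and had 0.706 to 2.16 RPM in OF1 and 0.0226 to 0.0711 in C57 mice. Of the 9 copies of Rpsa with 10 or more reads, 6 carry T210C and 4 carry C219T.

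**Figure D2:**
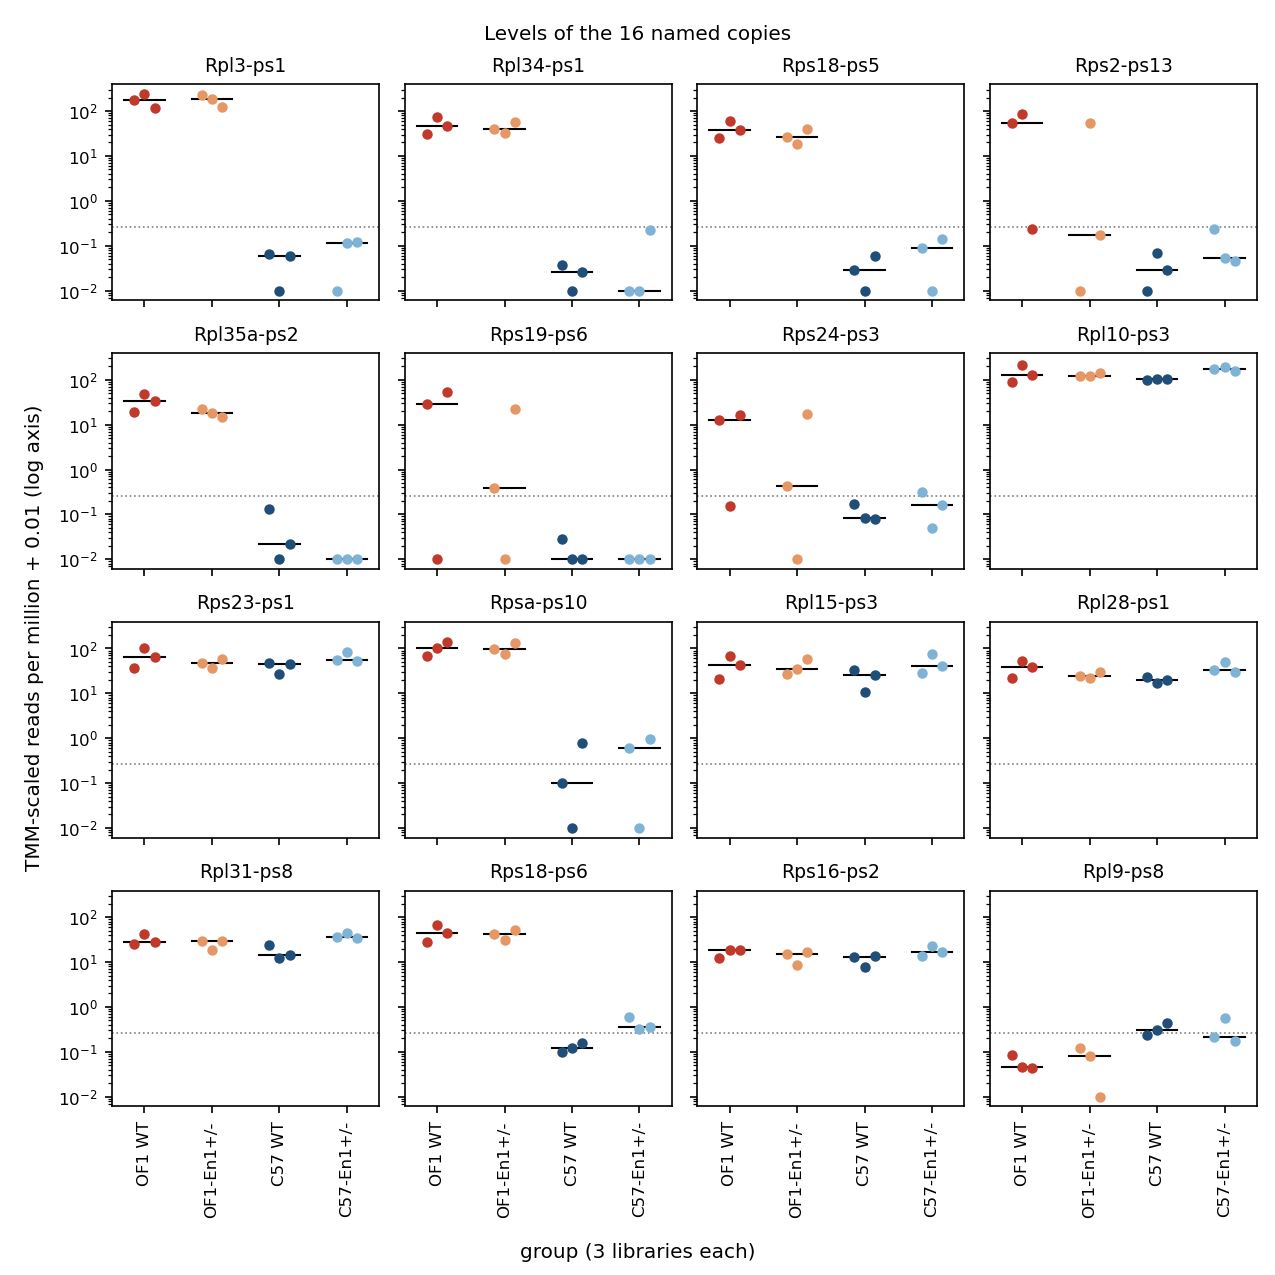
Each panel gives 1 of the 16 copies named by the fixed rule, with RPM plus 0.01 on a log axis for the 3 libraries of each group (points) and the group median (line). The dotted line marks 0.25 RPM plus the same 0.01. Rpl3-ps1, Rpl34-ps1, Rps18-ps5 and Rpl35a-ps2 are above it in 6 of 6 OF1 libraries and below it in 6 of 6 C57 libraries, while Rps2-ps13, Rps19-ps6 and Rps24-ps3 split the OF1 mice.

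Not all OF1 mice were alike. Rps2-ps13, at chrX:51987465-51988346, copies Rps2 and had 53.6 and 86.0 RPM in SW31 and SW7 and 53.2 in SW22, but 0.225, 0 and 0.161 in SWG, SW21 and SWB. In C57 mice it had 0 to 0.223 RPM, so 3 of the 6 OF1 mice were near the levels of C57 mice. Its 7 differences from Rps2 are all synonymous.

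Rps19-ps6, at chr12:110864548-110864985 within an intron of Tecpr2, split the OF1 mice another way. It had 29.4, 53.5 and 21.8 RPM in SW31, SWG and SWB, 0.380 in SW21, and 0 in SW7 and SW22. C57 mice were at 0 in 5 libraries and at 0.0188 in C5710. Rps24-ps3, at chrX:78238653-78239054, was high in the same 3 OF1 mice, at 12.5, 16.6 and 16.9 RPM, and at 0 to 0.416 in the others. C57 mice had 0.0398 to 0.307, which made the copy uneven rather than read in OF1 only. Both split patterns cut across genotype, with 2 WT mice and 1 hemizygous mouse high for each of the 3 copies.

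The weakest copies read in OF1 only, named after their values were seen, were Rpl14-ps1 and Rpl13-ps6. Rpl14-ps1 had 0 to 2.46 RPM in OF1 mice with a median of 0.522, and 0 to 0.0723 in C57 mice. Rpl13-ps6 had 0 to 0.390 RPM in OF1 and 0 to 0.198 in C57 mice, so its groups overlapped and its place in this class rests on the level of 0.25 RPM.

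With so wide a spread in OF1, these 3 copies did not pass edgeR's quasi-likelihood test for strain after Benjamini-Hochberg adjustment. The adjusted p was 0.057 for Rps2-ps13, 0.0906 for Rps19-ps6 and 0.0761 for Rps24-ps3. DESeq2, which called 13 copies for strain where it called 3.65% of the genes it tested, gave adjusted p of 1.15e-06, 0.00203 and 2.68e-06 for them.

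The filter on low counts left 26 of the 141 copies to be tested, and 9 had an adjusted p under 0.05 for strain in edgeR, where 2.00% of the 18017 tested genes had. All 9 were higher in OF1, where 1.24% of tested genes were, and 0 were lower, where 0.755% were. They were Rpl3-ps1, Rpl34-ps1, Rpl35a-ps2, Rps18-ps3, Rps18-ps5, Rps18-ps6, Rpsa-ps7, Rpsa-ps10 and Rpl31-ps15, the last at 0.375 to 1.01 RPM in OF1 and 0 to 0.203 in C57 mice. A copy that passed the filter only through its OF1 level had to differ, so the count is a description. In WT mice alone 8 copies were called, where 1.03% of genes were, and in hemizygous mice alone 8, where 0.927% were. Without SW22 and C572S, the libraries with abundant dopaminergic markers, 8 of the 9 were called, and likewise without C572. Rpl31-ps15 was the one lost in both, as it was in 9 of the 12 fits that left out 1 library.

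Some copies share their whole sequence with the parent. Of the 14 copies read in both strains, 8 had 0 differences from the parent over the aligned bases, and none of the 127 copies outside that class did. In 7 of the 8 every window of 75 bases, the read length, is also in a transcript of the parent. Their reads could therefore be placed only by the division that the quantification made, and their levels are uncertain. The log2 fold changes of those 7 for strain were between 0.05 and 0.65, with a median of 0.18. Of the 7, 0 passed the edgeR test for strain, where 2.00% of all tested genes did. With so few copies at that share, and reads that fit the parent as well, this count says nothing about the copies themselves.

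Rps23-ps1 shows this class. It had 37.0, 101 and 66.2 RPM in OF1 WT, 46.8, 36.3 and 58.6 in OF1-En1+/-, 46.6, 27.4 and 44.4 in C57 WT and 55.2, 85.2 and 51.8 in C57-En1+/- mice. The groups overlapped throughout, with a log2 fold change of 0.17 ± 0.25 (adjusted p = 0.979). Per length, Rps23-ps1 took 64.1 to 70.9% of the Rps23 family in OF1 and 62.6 to 68.0% in C57 mice. Rpl28-ps1 likewise took 53.4 to 62.2% of the Rpl28 family in OF1 and 54.9 to 60.6% in C57 mice.

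Rpl10-ps3, annotated as protein-coding at chr9:50255501-50256268, had 87.0 to 216 RPM in OF1 mice, within which all 6 C57 libraries fell (100.3 to 192 RPM). The parent Rpl10 encodes a large-subunit protein. Over 740 aligned bases the copy has 0 differences, and it took 69.6 to 81.5% of the family per length in every library. Its log2 fold change for strain was 0.00 ± 0.19. Rpl15-ps3, Rpl31-ps8 and Rps16-ps2 had log2 fold changes of 0.33 ± 0.36, 0.18 ± 0.22 and 0.05 ± 0.24.

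Identical copies could also vary from all to nothing within a strain. Rps12-ps3, named after its values were seen, was at 0 in SW21, C5710 and C5713 and at 4.98 to 35.9 RPM in the other 9 libraries. Rps13-ps2, also named then, was at 0 in SW22, C572S and C5713 and at 1.35 to 13.7 in the others. Neither pattern followed strain or genotype.

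The 11 copies read in OF1 only are 95.5 to 99.8% identical to the parent over the aligned bases, with 1 to 14 differences and a median of 4. The 111 low copies had 1 to 76 differences with a median of 13, and a median identity of 97.1%. Copies read in both strains had 0 to 23 differences, so the number of differences did not separate the classes. The class read in C57 only is 1 distant copy: Rpl9-ps8, at chr3:144331164-144331725, has 54 differences and 87.5% identity to Rpl9. It had 0.160 to 0.552 RPM in C57 and 0 to 0.110 in OF1 mice, too few to be tested, and every C57 library was above every OF1 library.

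**Figure D3:**
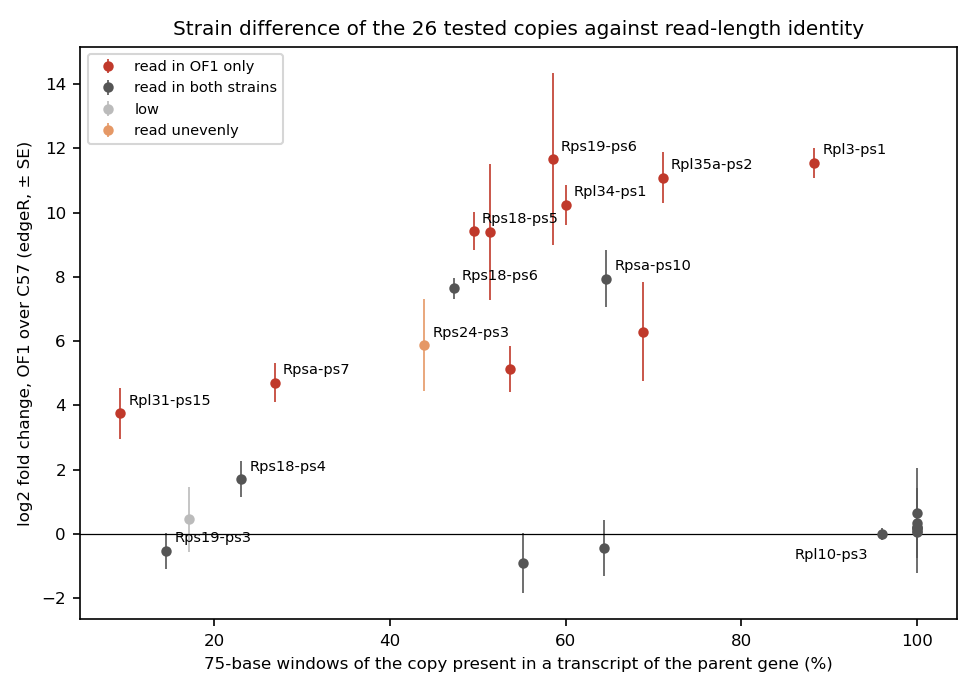
The strain log2 fold change (OF1 over C57, edgeR, bars ± SE) of the 26 tested copies is plotted against the percent of 75-base windows of the copy that are also in a transcript of its parent, coloured by class. The 7 copies at 100% and Rpl10-ps3 beside them lie near 0, and the 9 called copies lie between 9.30 and 88.3% with log2 fold changes of 3.75 to 11.55.

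Some parents of copies that were high in OF1 were lower there. Of the 79 cytosolic ribosomal protein genes listed, 6 were called for strain in edgeR, all lower in OF1: Rps2, Rps7, Rps18, Rpsa, Rpl29 and Rpl34, beside the 2.00% of all tested genes. Across the 79 genes the median log2 fold change was 0.02, beside -0.04 for all tested genes. The median was 0.43 in WT mice, with 1 gene called (2 without SW31 and 3 without SW7), and -0.45 in hemizygous mice, with 5 called. Those 5 fell to 1 without SW21, without SW22, without C572 or with only the 6 hemizygous libraries, to 2 without C5713, and to 3 without SWG, SWB or any 1 of the C57 WT libraries. For the difference between the strain effects of the 2 genotypes, 0 of the 79 genes were called by edgeR and 1, Rps29, by DESeq2. Reads given to a copy and to its parent come from one pool, so the 2 values are not independent.

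Rpl34 had at most 61.2 RPM in OF1 mice, where C57 mice had 57.4 to 117, with a log2 fold change of -0.99 ± 0.20 (adjusted p = 0.0221). With the reads of its copies added before the fit, the family had 59.6 to 134 in OF1 and 56.9 to 116 in C57 mice, and the log2 fold change became 0.12 ± 0.20 (adjusted p = 0.99). Rps18 alone had -1.02 ± 0.17 (adjusted p = 0.00539) and with its copies 0.03 ± 0.18 (adjusted p = 0.998). For both genes the difference between strains in the parent was about matched by the reads of the copies.

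Rpl3, just short of the threshold alone (-0.85 ± 0.20, adjusted p = 0.0624), had 0.07 ± 0.14 as a family, and Rpl3-ps1 took 32.1 to 59.9% of the family per length in OF1 mice and at most 0.0366% in C57 mice. Rpl35a alone had -0.46 ± 0.19 (adjusted p = 0.492) and 0.05 ± 0.19 with its copies. In Rpsa the match was partial: the log2 fold change went from -1.31 ± 0.22 (adjusted p = 0.00633) to -0.61 ± 0.17 (adjusted p = 0.15).

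**Figure D4:**
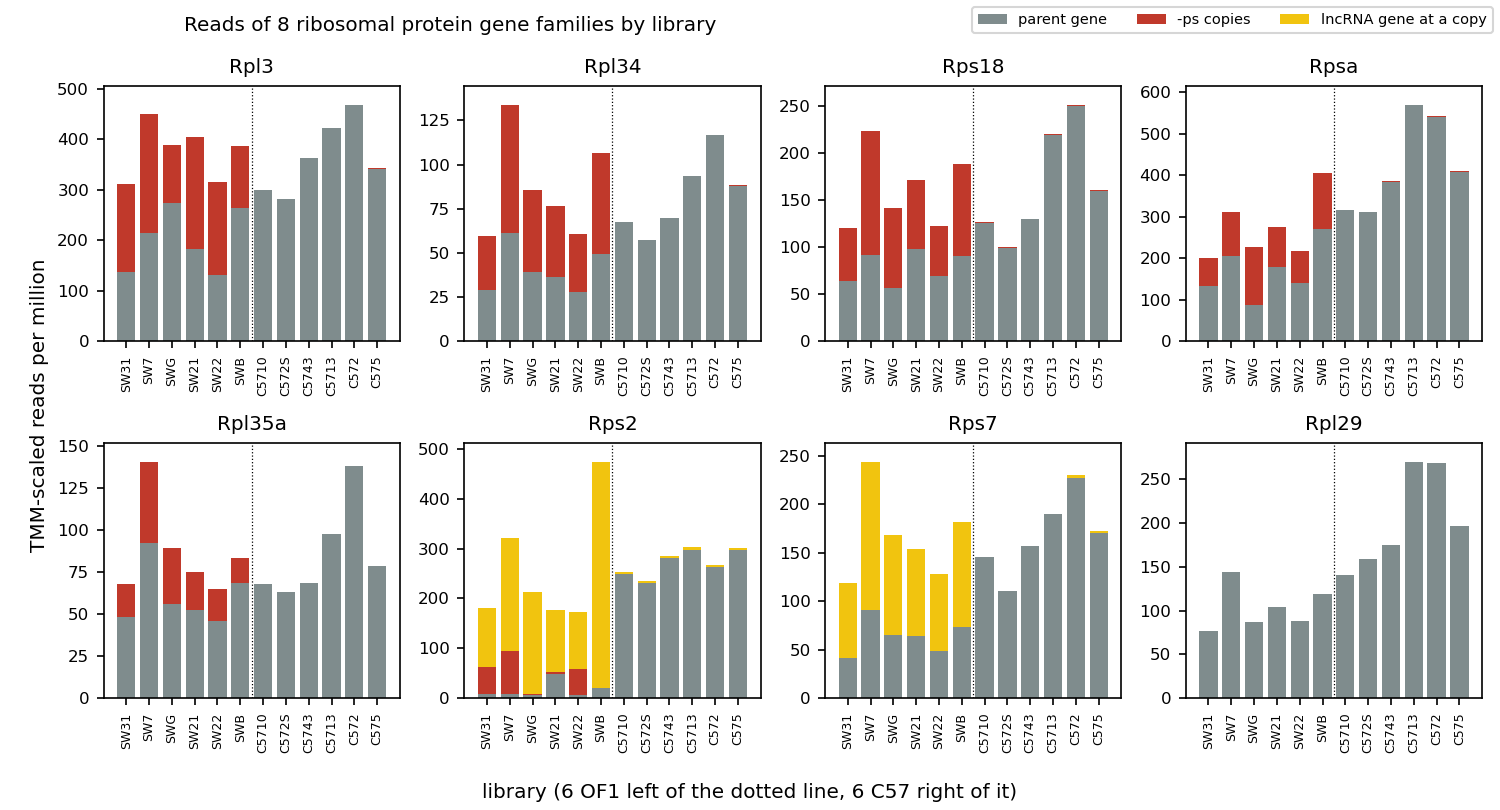
Stacked bars give the RPM of the parent gene (grey), its copies with 10 or more reads (red) and lncRNA genes at the place of a copy (yellow) in each library, for 8 families. In Rpl3 and Rps18 every grey bar left of the dotted line is lower than every grey bar right of it. The grey bars of both sides overlap a little in Rpl34 and widely in Rpl35a. In these families the stacks reach similar heights on both sides. Rps2 and Rps7 do so only with the yellow part, and Rpl29 has almost no copy reads.

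Across the 48 parent families, 3 sums were called for strain, Rps2, Rps7 and Rpl29, where 1.95% of all features of that fit were called. Without SW22 and C572S together 1 family was called. Rps2 was the most extreme parent: it had 5.497 to 48.8 RPM in OF1 and 230 to 297 in C57 mice (log2 fold change -4.27 ± 0.41, adjusted p = 9.01e-05). Its family sum still had -2.45 ± 0.48 (adjusted p = 0.0234). Rps7 had -1.36 ± 0.20 alone and -1.35 ± 0.19 as a family.

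Both families have a copy whose own transcript was quantified at 0 in all 12 libraries while a longer transcript at its place on the same strand took reads. Gene names here come from GENCODE M39, which gives that longer transcript to a lncRNA gene. Its gene in M28, the release quantified, was not used here. Were it the copy itself, the copy would be among those with 10 or more reads, not among the 65 with 0, and its reads would be in the family sum. Gm58349, on chromosome 18, covers 100% of Rps2-ps10, a copy with 5 differences from Rps2 over 879 aligned bases. It had 113 to 454 RPM in OF1 and 3.23 to 5.96 in C57 mice (log2 fold change 5.69 ± 0.41, adjusted p = 5.31e-06). Gm61310 (chrX:151692501-151693151) covers 100% of Rps7-ps3, a copy with 3 differences from Rps7 over 582 aligned bases. It had 77.5 to 152 in OF1 and 0 to 3.85 in C57 mice (log2 fold change 7.43 ± 0.86, adjusted p = 0.000625).

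The reads of lncRNA genes at the places of copies were then added to their families, in a sum chosen after the data were seen. Besides Gm58349 and Gm61310, this added Gm65279 at Rps15a-ps4 (log2 fold change -0.05 ± 0.61, adjusted p = 0.999). It also added Gm65298 at Rps26-ps1, which was too low to be tested. In this sum Rps2 had 173 to 472 RPM in OF1 and 232 to 310 in C57 mice, and Rps7 118 to 249 and 109 to 235. The log2 fold changes were then -0.09 ± 0.25 (adjusted p = 0.996) and 0.00 ± 0.19 (adjusted p = 1.00), and only Rpl29 of the 48 families was called (-0.93 ± 0.18, adjusted p = 0.015). Rpl29 had 76.6 to 144 RPM in OF1 and 140 to 270 in C57 mice without its copies, and its copies changed the sums by little.

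**Figure D5:**
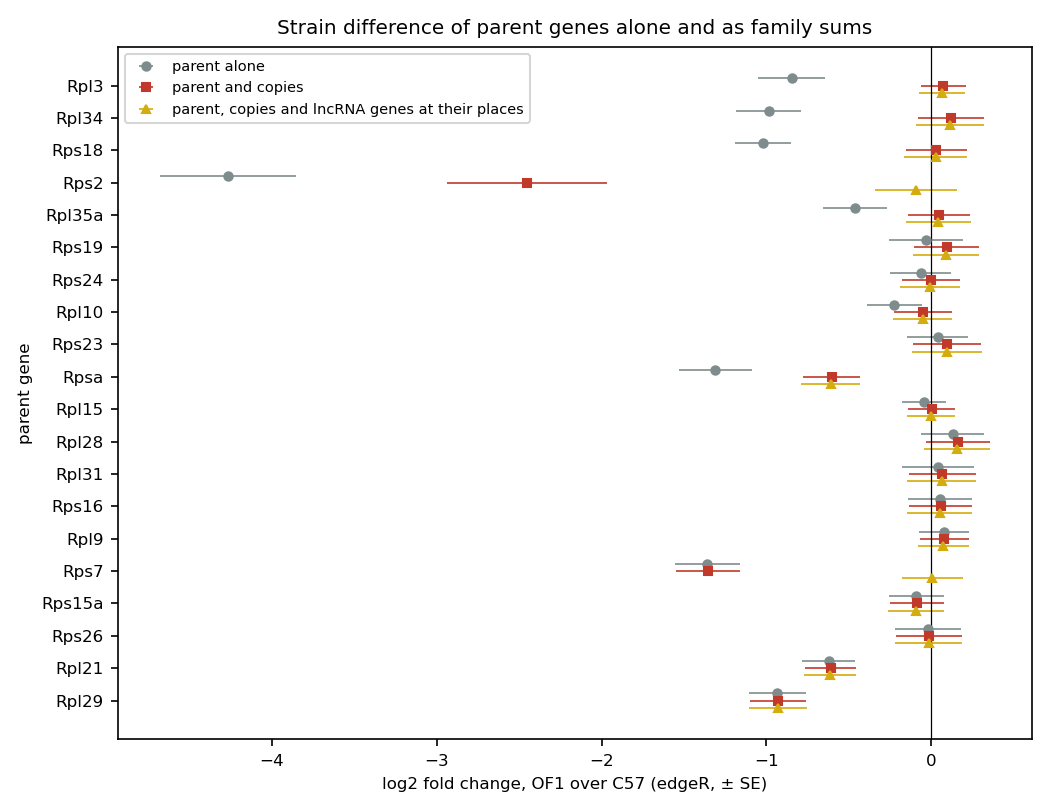
Points give the strain log2 fold change (OF1 over C57, edgeR, bars ± SE) of each parent gene alone (circles), with its copies (squares) and with lncRNA genes at the places of copies (triangles), for the parents of the named copies and 5 further families. Rpl3, Rpl34, Rps18 and Rpl35a move to near 0 with their copies and Rps2 and Rps7 with the lncRNA genes, while Rpsa, Rpl21 and Rpl29 stay below 0.

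No copy passed the edgeR test for En1 genotype. In OF1 mice 0 of the 26 tested copies were called for genotype, where 0% of all tested genes were. At an unadjusted p under 0.05 were 0 copies, beside 1654 of the 18017 tested genes. DESeq2 called 0 copies as well, with 5 left without an adjusted p, where it called 1.22% of the genes it tested. The log2 fold change of Rpl3-ps1 between OF1-En1+/- and OF1 WT mice was 0.01 ± 0.39, and that of Rps18-ps6 was -0.15 ± 0.34. The median over the 26 copies was -0.34, beside -0.02 for all genes. Between these groups the sum of 4 subthalamic and posterior hypothalamic markers also differed, at 280 to 1386 RPM in OF1 WT and 20.7 to 32.8 in OF1-En1+/- mice. The 3 oligodendrocyte markers had 404 to 911 RPM in OF1 WT and 1251 to 2716 in OF1-En1+/- mice. The 3 endothelial markers had 45.4 to 78.5 and 78.7 to 112. The part of these markers in the values was not tested. In C57 mice 0 copies were called, where 0% of genes were, with 5 at an unadjusted p under 0.05, beside 1544 of the 18017 tested genes. DESeq2 called 1 copy, Rpl31-ps8, where it called 0.416% of the genes it tested.

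The 8 copies with 0 differences from the parent had log2 fold changes for genotype in C57 mice of 0.63 (Rps16-ps2) to 1.23 (Rpl31-ps8), and 0 of 8 were called by edgeR. The C57 WT and C57-En1+/- libraries overlapped in 4 of them, Rpl15-ps3, Rps12-ps3, Rps13-ps2 and Rps16-ps2. Reads of these 8 copies were divided with their parents, so their values are not independent of those of the parent genes. Rpl31-ps8 had 23.4, 12.2 and 14.2 RPM in C57 WT and 36.7, 45.2 and 34.9 in C57-En1+/- mice, a log2 fold change of 1.23 ± 0.31 (adjusted p = 0.55). Rpl10-ps3 had 0.77 ± 0.27 and Rpl28-ps1 0.89 ± 0.32. Of the 79 ribosomal protein genes, 78 had a log2 fold change above 0 in this comparison, with a median of 0.66 beside -0.05 for all genes. Of them 0 were called by edgeR or DESeq2, and 49 had an unadjusted p under 0.05 in edgeR, beside 1544 of all 18017 tested genes. In OF1 mice 9 of the 79 were above 0, with a median of -0.23. The C57 WT libraries held 61433970 to 168741283 estimated reads and the C57-En1+/- libraries 20030280 to 37754338. Depth thus separated these groups wholly, and its part in these values was not tested. The sum of 3 blood markers (Hbb-bs, Hba-a1 and Alas2) was 178 to 219 RPM in C57 WT and 355 to 688 in C57-En1+/- mice. Alas2 alone overlapped, at 4.58, 7.62 and 7.78 RPM in C57 WT and 7.40, 5.98 and 19.5 in C57-En1+/- mice. The part of these markers was not tested. For the difference between the genotype effects of the 2 strains, 0 copies were called by edgeR or DESeq2, where 0% of genes were called by edgeR and 0.247% by DESeq2. In edgeR 6 copies had an unadjusted p under 0.05, beside 1274 of all 18017 tested genes.

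Among copies with differences from the parent, 4 more were read in both strains at low levels. Rpl31-ps12, Rps13-ps4 and Rps19-ps3 had medians of 0.249 to 0.610 RPM in OF1 mice and of 0.384 to 0.922 in C57 mice. Rps18-ps4, which cannot be told from Rps18-ps6 where they overlap, had a median of 1.22 RPM in OF1 mice and of 0.473 in C57 mice, with a log2 fold change of 1.70 ± 0.57 (adjusted p = 0.262). The uneven copies Rpl9-ps6, Rpl21-ps7 and Rpsa-ps2 reached at most 0.962 RPM in any library. These 7 were named after their values were seen.

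The other copies held few reads. The 111 low copies together had 4.54 to 9.33 RPM in each library, and the 11 read in OF1 only had 263 to 512 RPM in OF1 mice, against 0.297 to 0.674 in C57 mice. These 11 lie on 9 chromosomes, 2 of them on chromosome X, and come from 10 parent genes. Of the 11, 10 are annotated as processed and 1 as a transcribed processed pseudogene. Rps12-ps1, the single low copy that could be tested, lies on chromosome X within Tsix and is also crossed by an exon of that gene. The gene Xist spans the same place on the opposite strand, and the libraries did not mark strand. Which of these genes its reads came from was not tested. Rps12-ps1 had 0 to 1.49 RPM, with a log2 fold change for strain of 0.45 ± 1.00.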

How the data were processed

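RNA of laser-captured SNpc from 12 mice was sequenced without strand information as paired reads of 75 bases (SMART-Seq v4 and Nextera XT). The authors quantified transcripts of GENCODE M28 on GRCm39 with Salmon, per the labels and the study's methods, and deposited expected counts (estimated counts of reads, not whole) and TPM per transcript. Both depend on how Salmon divided reads among near-identical transcripts.

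Here 139555 of 140790 transcripts (99.1%) were matched by identifier to GENCODE M39, and estimated counts were summed over 54193 genes. Levels are RPM (reads per 1000000), scaled with TMM factors. Rounded sums of 18017 genes whose normalized counts averaged 10 or more were tested with edgeR 4.0.16 (robust quasi-likelihood, 1 mean per group, all 12 libraries) and, as an alternative, DESeq2 1.42.0, in R 4.3.3, with Benjamini-Hochberg adjustment over all tested genes and a threshold of 0.05. For family sums, reads of copies were added to the parent before the fit. Copies were aligned to the parent transcripts with Biopython 1.88. Strain effects are OF1 over C57 and genotype effects hemizygous over WT. The edgeR fit was tested on simulated data. Each replicate is 1 mouse, by the mouse names in the labels.

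The named copies were those read in 1 strain only or unevenly whose normalized counts averaged 50 or more, the 8 highest read in both strains, any higher in C57, any called for genotype, and the copies nearest to the minimum, with their parents. The members and lists were chosen with earlier results of these data known. Alternatives were other normalization, no filter, offsets for transcript length, other levels for a copy to count as read, and libraries left out. Levels near 0 are limited by depth: 0.25 RPM is 3.41 reads in the shallowest library. This covers counting error only.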

Additional observations from a re-analysis of the deposited data

How the results depend on the processing

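The count of copies called for strain was 8 to 13 over all alternatives. Leaving out 1 library gave 8 to 10 copies for strain, 5 to 8 in WT mice (5 without C57 WT mouse C5710) and 5 to 7 in hemizygous mice (5 without C5713 and 5 without C575), 0 for each genotype contrast and the interaction, 5 to 8 parent genes and 2 to 4 families. DESeq2 called 1 copy for genotype in C57 mice. Families called for strain fell from 3 to 1 without SW22 and C572S together, and to 1 with lncRNA genes at the places of copies, an alternative chosen after seeing the data. At a level of 0.1 RPM, 3 copies were read in OF1 only, 2 in C57 only and 23 in both strains, and at 1 RPM 12, 0 and 8. Leaving out 1 library gave 9 to 12 copies read in OF1 only, 0 to 2 in C57 only (2 without SW31, 0 without C572S, C5743 or C572) and 12 to 14 in both, and 0 in C57 only without SW22 and C572S together. Among named copies, the sign of Rpl10-ps3 turned with offsets for transcript length (-0.003231). With 1 library left out, its log2 fold change ran from -0.22 to 0.14, that of Rps23-ps1 from -0.03764 to 0.33 and that of Rps16-ps2 from -0.05828 to 0.17. Rps2-ps13 was called without SWG, SW21 or SWB, Rps19-ps6 without SW7, and Rps24-ps3 without SW7 or SW22. Causes were not tested, beyond fewer samples or other sums by construction. No paired analysis was possible because the labels give mouse names and no replicate number shared between groups.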
